A study of Mus musculus with 10 samples.

Results

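The major urinary protein (Mup) gene cluster of mouse chromosome 4 was described here through every peak that overlapped chromosome 4, 59900001 to 62000000 (mm9), by at least 1 bp. This window of 2.1 Mb held 496 of the 344928 peaks in 9 deposited lists, and was set against the 2.1 Mb on its left and the 2.1 Mb on its right, called the flanks. The rule for a member used position alone, and no peak value entered it. The series profiled acetylation of histone H3 (H3K27Ac), a mark of active promoters and enhancers, and H3K4me2, which marks promoters and enhancers more broadly, by chromatin immunoprecipitation and sequencing. All libraries came from normal mouse liver taken as full sections, and the labels give no strain, sex or age.

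One group was fresh frozen liver, fixed briefly with formaldehyde before immunoprecipitation of H3K27Ac (1 library). The other groups were formalin-fixed, paraffin-embedded (FFPE) liver. FiTAc-seq libraries for H3K27Ac were homogenized by heat in detergent and then sonicated, at 50 °C for 5 min (1 library) or 40 min (1), at 65 °C for 5 min (2) or 40 min (1), and at 80 °C for 40 min (1). FiT-seq libraries were homogenized with proteinase K, 1 for H3K27Ac and 1 for H3K4me2. An FFPE input DNA sample was not analysed here. Each list belongs to 1 library and gives, for each peak, a value taken here as −log10 of a q-value, so a larger value is a stronger peak within its list. Read depth is unknown, as the lists give no counts. The FiTAc-seq libraries are named below by temperature and sonication time, FiTAc-50/5, FiTAc-50/40 and FiTAc-65/40, and the 2 libraries of 65 °C and 5 min are called the 65/5 pair. Peaks of the window numbered 96 in fresh frozen liver, 45 in FiTAc-50/5, 89 in FiTAc-50/40, 92 and 84 in the 65/5 pair, 87 in FiTAc-65/40, and 3 for H3K4me2. At least as many were held by 7.77% of the genome's windows of this length in fresh frozen liver and by 77.4% for H3K4me2, among windows with a peak in any of these lists. These 7 lists, each of 11746 peaks or more, are called the long lists. The 80 °C list and the FiT-seq H3K27Ac list held only 65 and 115 peaks in all. Both had 0 in the window and 0 in either flank, which allows shares of up to 4.62% and 2.61% of those lists, taking 3 counts as the limit of a count of 0. The Wilson 95% upper limits were 5.58% and 3.23%.

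Major urinary proteins are small lipocalins made by hepatocytes, secreted into blood and passed into urine, where they bind and slowly release volatile pheromones. Their expression in liver is high, differs between the sexes and depends on growth hormone. The genes arose by repeated duplication, and many copies differ at few positions, so a short sequencing read often fits several of them and cannot be placed on one. A peak list therefore shows only those parts of such an array where the authors' alignment placed reads. The treatment of reads that fit several copies is not given in the sources used here, and its part in the results below was not tested.

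RefSeq lists all 22 symbols from Mup1 to Mup22 on chromosome 4 of a later build (GRCm38.p6). That build was used for names, gene order and promoter sequences, and the peaks below were not assigned to genes, since an mm9 annotation was not used here. In the peak results the cluster therefore means the window, and whether its edges match those of the Mup genes was not checked. In gene order, Mup4 comes first, after Slc46a2, a solute carrier gene. The long central run goes from Mup6 to Mup19. Mup5, Mup20, Mup3 and Mup21 close the cluster before the zinc finger gene Zfp37. Mup20 encodes darcin, the male pheromone that attracts females. From the first to the last member the annotation lists 46 genes of any kind, of which 19 are pseudogenes.

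The promoters show how alike the copies are. RefSeq promoter sequences were found for 14 of the 22 genes, Mup3 and Mup4 among them. Over the 91 pairs of these 300-base windows, the median identity was 90.9%, with a range of 73.7% to 99.0%. The longest run of identical bases had a median of 56 and reached 275, between Mup15 and Mup19. In 49 pairs, or 53.8%, that run was at least 50 bases. Mup21, Mup3 and Mup4 had the lowest median identities to the other promoters, at 75.3%, 77.3% and 82.6%. The longest identical run of Mup3 was 42 bases, shared with Mup21, and that of Mup4 was 55 bases, shared with Mup6. The 250 bases before the start of Mup4 (GRCm38.p6 chr4:59960668-59960917), of the near-identical pair Mup15 (chr4:61439705-61439954) and Mup19 (chr4:61782225-61782474), and of Mup3 (chr4:62087318-62087567) and Mup21 (chr4:62150842-62151091) are given below, all on the minus strand and written 5′ to 3′. Capitals mark the TATA box. These positions are those of GRCm38.p6 and cannot be set against the mm9 positions of the window, its flanks or the peaks.
Mup4: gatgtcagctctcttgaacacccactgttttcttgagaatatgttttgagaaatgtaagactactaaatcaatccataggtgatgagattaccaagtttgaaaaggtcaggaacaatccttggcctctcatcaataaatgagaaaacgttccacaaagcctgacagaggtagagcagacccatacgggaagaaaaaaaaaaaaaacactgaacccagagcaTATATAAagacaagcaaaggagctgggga
Mup15: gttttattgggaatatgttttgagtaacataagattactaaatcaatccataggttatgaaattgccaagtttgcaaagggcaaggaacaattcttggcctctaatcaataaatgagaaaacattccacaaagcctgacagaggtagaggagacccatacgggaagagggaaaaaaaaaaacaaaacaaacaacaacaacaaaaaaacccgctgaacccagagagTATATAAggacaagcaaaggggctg
Mup19: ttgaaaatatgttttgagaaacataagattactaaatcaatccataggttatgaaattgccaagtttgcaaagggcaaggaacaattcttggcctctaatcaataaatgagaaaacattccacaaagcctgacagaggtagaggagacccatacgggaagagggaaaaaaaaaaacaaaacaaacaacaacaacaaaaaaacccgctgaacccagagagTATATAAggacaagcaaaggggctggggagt
Mup3: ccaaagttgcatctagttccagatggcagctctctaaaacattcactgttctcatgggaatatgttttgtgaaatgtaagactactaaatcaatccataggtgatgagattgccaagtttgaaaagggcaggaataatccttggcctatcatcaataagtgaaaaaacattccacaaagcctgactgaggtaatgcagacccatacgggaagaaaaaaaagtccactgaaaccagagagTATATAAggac
Mup21: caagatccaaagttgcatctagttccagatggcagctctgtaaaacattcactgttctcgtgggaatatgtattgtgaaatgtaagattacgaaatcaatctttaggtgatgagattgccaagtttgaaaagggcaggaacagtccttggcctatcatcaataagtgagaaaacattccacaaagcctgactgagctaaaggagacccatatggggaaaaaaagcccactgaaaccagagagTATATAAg

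The TATA box letters TATATAA, searched on both strands of the 250 bases before the start, were found in 11 of the 14 Mup promoters, all on the gene's own strand. Of the 32851 RefSeq promoters of the same length, 3.04% held them. Mup7, Mup11 and Mup14 had no match in these 250 bases, and the 50 bases after the start were not searched. The promoter windows of the copies were offset from each other. Those of Mup7 and Mup2, for example, aligned over only 166 positions, at 97.6% identity. Whether these 3 genes have the letters outside the searched bases was not tested. The letters TTCNNNGAA, which STAT5, the transcription factor downstream of growth hormone, is known to bind, were found in 0 of the 14 and in 7.02% of all promoters. The same arms, TTC and GAA, with 4 bases between them were found in Mup4, Mup6, Mup7, Mup11 and Mup14, and in 5.85% of all promoters. In the Mup promoters these matches started at positions -247 to -141 relative to the gene start and those of the TATA box at -31 to -8, so they did not overlap. Mup7, Mup11 and Mup14, which had these matches, were also the 3 without the TATA box letters. Because the windows were offset and matches reached -247, copies without a match may differ only in which bases were searched. Whether they have the letters outside those bases was not tested. A match describes letters in this window and not a bound site.

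The first question was how densely the cluster was marked. In fresh frozen liver the window held 45.7 peaks per Mb, against 32.4 in the left and 29.0 in the right flank. Chromosomes 1 to 19 and X were cut into windows of this length, and the 1184 with a peak in any long list were kept. Of these, 7.77% held at least as many fresh frozen peaks as the Mup window, which had 96. The median was 33 peaks per window, a count and not a density per Mb. The left and right flanks held 68 and 61 fresh frozen peaks, also above that median. In the 65/5 pair the window had 43.8 and 40.0 peaks per Mb, a mean of 41.9 ± 2.69 (SD, n = 2). The flanks had 40.2 ± 5.72 on the left and 52.1 ± 4.38 on the right (SD, n = 2). Density in the cluster therefore lay between its flanks in the mean of this pair, and above both in fresh frozen liver. In the first library of the pair alone, the window was slightly below both flanks, at 44.3 and 49.0. In the second it was between them, at 36.2 and 55.2. In FiTAc-50/40 the values were 42.4 in the window, 38.6 on the left and 48.1 on the right. In FiTAc-65/40 they were 41.4, 36.2 and 51.0. In FiTAc-50/5 the window had 21.4 peaks per Mb, below both flanks at 28.6 and 30.5. Windows with at least as many peaks made up 26.2% of the 1184 windows in FiTAc-50/5, 21.8% in FiTAc-50/40, 18% and 18.8% in the pair, and 21.6% in FiTAc-65/40. In the same order, the median counts per window were 20, 40, 37, 35 and 38.5. The Mup window held 45, 89, 92, 84 and 87 peaks, above the median in each of these lists. H3K4me2 had 1.43 peaks per Mb in the window, against 9.05 and 6.67 in the flanks, and 77.4% of windows held at least as many.

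**Figure D1:**
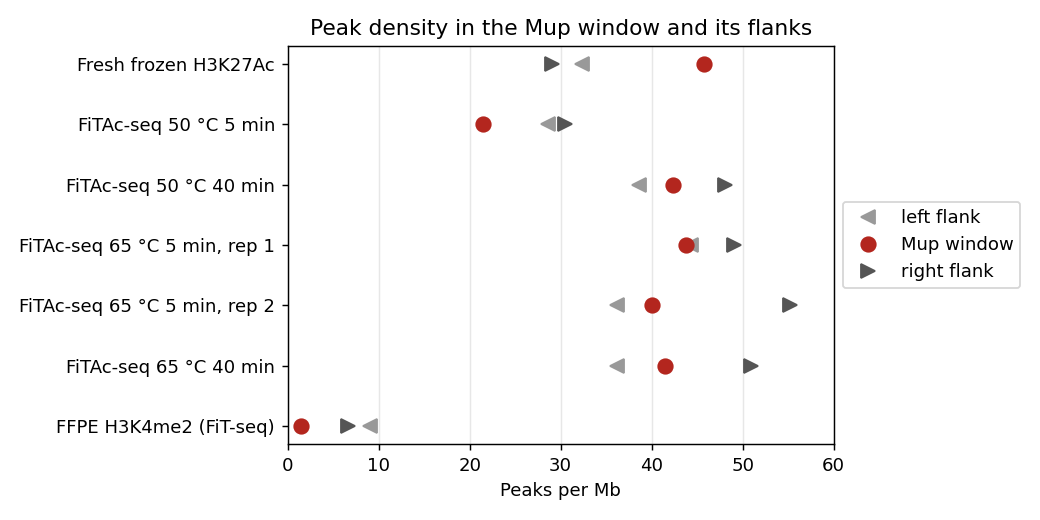
Peaks per Mb (x axis) in the left flank, the Mup window and the right flank for each of the 7 long lists (y axis), 1 point per list and region. The window lies above both flanks in fresh frozen liver at 45.7 per Mb and below both for H3K4me2 at 1.43 per Mb.

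Over the 7 lists, the mean difference in density between window and flanks was smaller than the spread between lists. On the log2 scale, with 1 peak per Mb added to both terms, the ratio was 0.56 in fresh frozen liver. It was -0.44 in FiTAc-50/5, -0.03 in FiTAc-50/40, -0.09 and -0.19 in the pair, -0.07 in FiTAc-65/40, and -1.87 for H3K4me2. The mean was -0.30 ± 0.75 (SD over 7 lists), with 1 list above and 6 below 0, and an exact two-sided sign-flip permutation test gave p = 0.344. The direction in single lists depended on the setting. With only values of at least 5, 5 of the 7 lists were above 0, and with peaks up to 500 bp apart joined, or against the left flank alone, 4 were. Without the fresh frozen list the mean was -0.45, and the same exact permutation test over the 6 FFPE lists gave p = 0.0313, the smallest that 6 lists allow. That value followed from leaving out the only list above 0, so no conclusion is drawn from it. The H3K4me2 list set most of the mean, which was -0.04 without it. The test compares the mean ratio with 0 and takes the lists as independent units. All lists come from the same kind of tissue, and those of the pair from the same condition, so they may not be independent.

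As a share of its list, the cluster took 0.199% of fresh frozen peaks (Wilson 95% interval 0.163 to 0.243). The shares were 0.153% and 0.148% in the pair, 0.136% in FiTAc-50/40, 0.136% in FiTAc-65/40, and 0.117% (0.0876 to 0.157) in FiTAc-50/5. For H3K4me2 the share was 0.0255% (0.00869 to 0.0751). Intervals cover counting error only, and neighbouring peaks are not independent.

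Peaks of the cluster were narrow. Their median width was 208 bp in fresh frozen liver, against 362 and 319 bp in the flanks. It was 263 ± 15.2 bp in the 65/5 pair (SD, n = 2), against 302 ± 40.7 and 309 ± 5.30 bp. Medians in the window were 206 bp in FiTAc-50/5, 275 bp in FiTAc-50/40, and 311 bp in FiTAc-65/40. In the last of these lists the flanks had 284.5 and 268 bp, so the order was the other way round there. Peaks covered 28.5 kb of the window in fresh frozen liver and 41.4 ± 0.408 kb in the pair (SD, n = 2). In the pair, the flanks were covered over 53.3 ± 2.07 and 81.3 ± 4.60 kb. With covered length in place of peak number, the mean log2 ratio of window to flanks was -0.88 and an exact sign-flip permutation test gave p = 0.0313. This was an alternative among several to the main test on peak number, where the same permutation test gave p = 0.344. No adjustment was made for the number of alternatives, and the lists may not be independent. The ratio of covered length was 0.11 in fresh frozen liver and below 0 in the 6 FFPE lists, from -0.18 in FiTAc-65/40 to -3.15 for H3K4me2. The H3K4me2 value rests on 3 peaks covering 0.571 kb, and covered length was not tested without that list. Within each long H3K27Ac list the median −log10 q-value of the window was at least as high as in the flanks. It was 11.0 against 10.1 and 8.89 in fresh frozen liver, and 12.5 against 6.93 and 7.08 in FiTAc-65/40. In FiTAc-50/5 all 3 medians were 5.65.

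Fresh frozen and FFPE peaks of the cluster often lay at different places. Of the 96 fresh frozen peaks, the 65/5 pair met 41 and 40, or 42.7% (Wilson 95% interval 33.3 to 52.7) and 41.7% (32.3 to 51.7). In the 2 flanks together, they met 79.8% (72.1 to 85.9) and 78.3% (70.4 to 84.5) of 129 peaks. Over the whole fresh frozen list these libraries met 73% and 70.2%. In FiTAc-50/40, 47.9% were met in the window, 75.2% in the flanks and 73.2% in the whole list. In FiTAc-65/40 the shares were 45.8%, 73.6% and 72%, and in FiTAc-50/5 they were 22.9%, 55.8% and 43.7%. Window minus flanks was -32.3 percentage points on average (SD 4.69 over 5 lists), and lower in 5 of 5 lists. An exact two-sided sign-flip permutation test gave p = 0.0625, the smallest that 5 lists allow, so this design could not pass 0.05. The 5 differences share the 1 fresh frozen list.

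**Figure D2:**
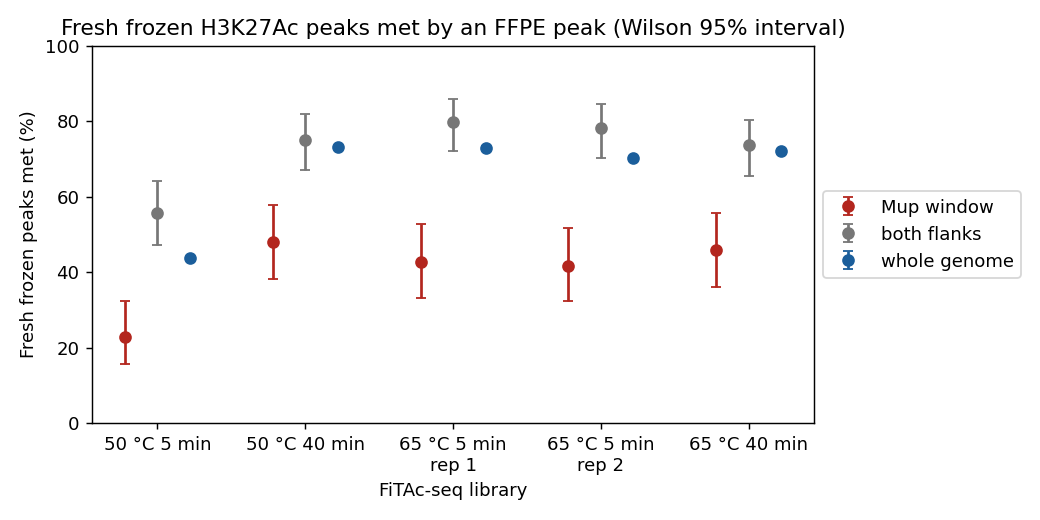
Share of fresh frozen H3K27Ac peaks (y axis, %) that met a peak of each long FiTAc-seq library (x axis) in the Mup window, in both flanks and in the whole list, with Wilson 95% intervals. In each library the window value, 22.9% to 47.9%, lies below the flanks, 55.8% to 79.8%.

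In total, 42 of the 96 fresh frozen peaks of the cluster were met by none of the 5 long FiTAc-seq lists, or 43.8% (34.3 to 53.7), where the whole fresh frozen list gave 16.6%. In the flanks it was 17 of 129, or 13.2% (8.39 to 20.1). Met by all 5 were 20, or 20.8% (13.9 to 30.0), against 51.2% (42.6 to 59.6) in the flanks and 41.1% in the whole list. In the flanks, the unmet peaks were low ones, with a median −log10 q-value of 5.61. In the cluster that median was 11.0, close to the 13.2 of the peaks met in all 5 lists. Unmet peaks were narrower in both places. Their median width was 199 bp in the cluster, against 407.5 bp for peaks met in all 5 lists. In the flanks the widths were 217 and 446.5 bp. How far peak width goes with the lower recovery in the cluster was not tested. Among fresh frozen peaks with a value of at least 10, a limit chosen after seeing the data, 25 of 54 in the cluster were met by no FiTAc-seq list, or 46.3% (33.7 to 59.4). In the flanks it was 0 of 59, which allows up to 6.11% by the Wilson interval, and in the whole list 5%. Of the same peaks, 12 of 54 in the cluster were met by all 5 lists, or 22.2%, against 81.4% in the flanks and 62.7% in the whole list. In the flanks the unmet share was lower for higher fresh frozen peaks, and in the cluster it had no such order. In the cluster the shares were 36.4% for values from 2 to 5, 41.9% from 5 to 10, 50.0% from 10 to 20 and 37.5% from 20 up, over 11 to 38 peaks each. Over the same ranges, the shares of the flanks were 42.1%, 17.6%, 0% and 0%.

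The FFPE peaks of the cluster were found again in the second library of their own condition. Of 92 window peaks in the first library of the 65/5 pair, 72 met the second, or 78.3% (68.8 to 85.5), and of 84 in the second, 71 met the first, or 84.5% (75.3 to 90.7). The flanks gave 67.9% (61.0 to 74.0) and 76.04% (69.5 to 81.5). Of the same window peaks, 33.7% and 36.9% met a fresh frozen peak, against 38.78% and 38.02% in the flanks. Over their whole lists these libraries had shares of 44.3% and 46.4%. In FiTAc-50/40, 44.9% of the window's FFPE peaks met a fresh frozen peak, against 48.4% in the flanks and 49.4% in the whole list. In FiTAc-65/40 the shares were 46.0%, 47.0% and 49.6%, and in FiTAc-50/5 they were 46.7%, 54.0% and 55.7%. Counted from the FFPE side, the Wilson intervals of window and flanks overlapped in each of the 5 lists. Whether reads that fit several gene copies were placed differently in fresh frozen and FFPE libraries was not tested, and animals, tissue preparation and sequencing cannot be told apart between them.

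Joining overlapping peaks of all lists gave 162 sites in the window. Of these, 42 had a fresh frozen peak and no FiTAc-seq peak (25.9%), 78 had FiTAc-seq peaks and no fresh frozen peak (48.1%), 41 had both (25.3%), and 1 had only an H3K4me2 peak. The left flank had 121 sites with 10, 71 and 38 in the first 3 classes, and the right flank 138 with 7, 91 and 38. Fresh frozen peaks without an FFPE counterpart thus made up 8.26% and 5.07% of flank sites. Sites in 6 or 7 long lists numbered 20 in the window, 19 in the left and 23 in the right flank.

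The sites fell into islands with long peak-free stretches between them. Ending an island at any gap of over 30 kb, a limit chosen after seeing the data, gave 21 islands that together spanned 21.2% of the window. Their median length was 17.8 kb. The starts of neighbouring islands were a median of 77.7 kb apart, with quartiles of 65.2 and 108 kb, and 12 of the 20 distances were between 60 and 100 kb. That range was not fixed in the design and lies around the window's own median, so its counts favour the window over the flanks. The left and right flanks had 11 and 9 islands, with median start distances of 161 and 190 kb, and 2 of 10 and 0 of 8 distances in that range. With a gap of 20 kb the medians were 77.3 kb in the window, 74.2 and 72.9 kb in the flanks, so the contrast in the median was seen only with the longer gaps. The distances in that range were then 13 of 22, 5 of 17 and 4 of 16.

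**Figure D3:**
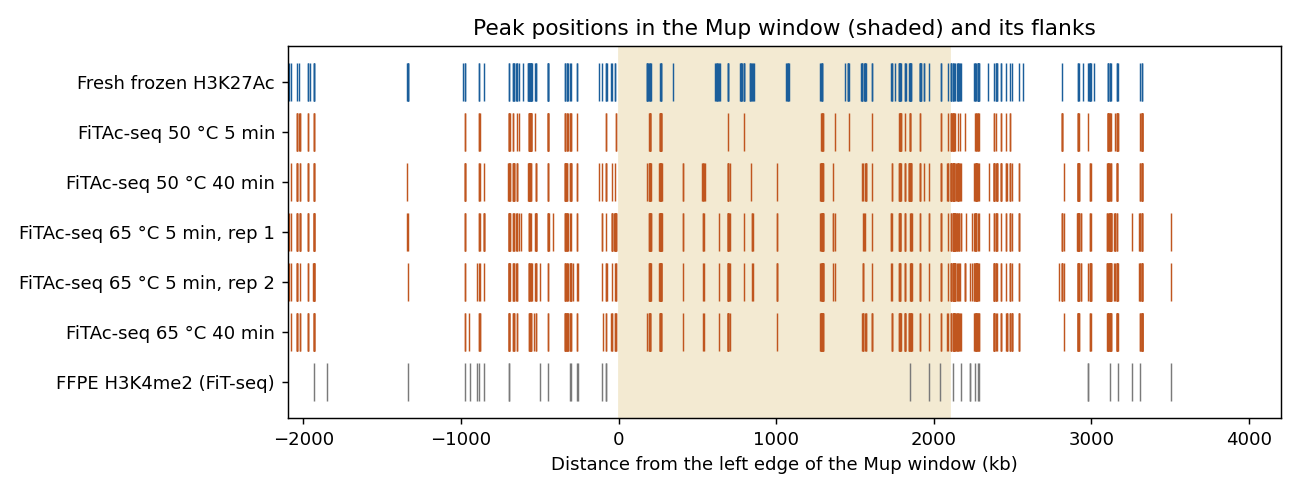
Position of each peak (vertical line at its midpoint) by distance from the left edge of the Mup window in kb (x axis) in the 7 long lists (rows), with the window shaded. Inside the window the peaks stand in islands, and several fresh frozen islands in the middle have few or no FFPE peaks.

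The islands differed in which lists marked them. Fresh frozen and all 5 FiTAc-seq lists had peaks in 9 of the 21, while 2 had fresh frozen peaks and no FiTAc-seq peak, and 4 had the reverse. Island 11, 60964119 to 60979481, held 5 fresh frozen peaks and 0 in each FFPE list. Island 8, 60671066 to 60694506, held 8 fresh frozen peaks, 1 in FiTAc-50/5, 1 and 1 in the pair, and 0 in FiTAc-50/40 and FiTAc-65/40. Island 14, 61335590 to 61363827, held 5 fresh frozen peaks and 1 in FiTAc-50/5, and 0 in the other FFPE lists. The reverse held in island 5, 60430811 to 60448640, with 0 fresh frozen peaks, 5 in FiTAc-50/40, 3 and 2 in the pair, 2 in FiTAc-65/40, and 0 in FiTAc-50/5. Island 12, 61180906 to 61199181, was the densest in the middle of the cluster. It had 5 fresh frozen peaks, 6 in FiTAc-50/5, 15 in FiTAc-50/40, 14 and 14 in the pair and 16 in FiTAc-65/40. Island 2, 60154935 to 60173062, had 4 fresh frozen peaks, 16 and 14 in the pair, and 9 in each of the other FiTAc-seq lists.

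**Figure D4:**
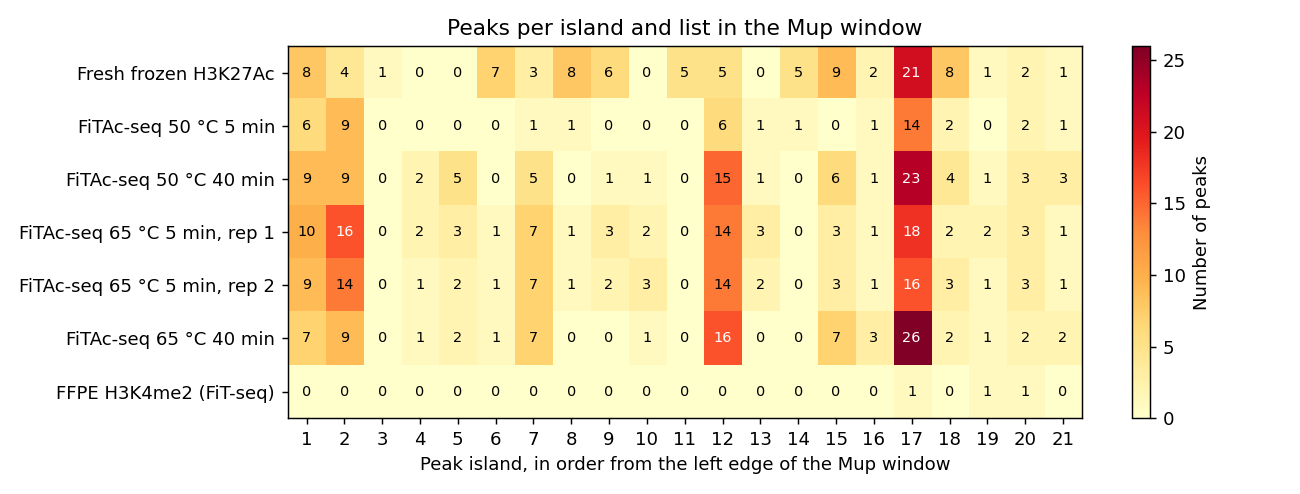
Number of peaks (colour and printed count) in each of the 21 islands of the Mup window (x axis, in order along the chromosome) and each of the 7 long lists (rows). Island 17 holds 14 to 26 H3K27Ac peaks in every H3K27Ac list, whereas island 11 holds 5 in fresh frozen liver and 0 in the FFPE lists.

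The 3 longest stretches without a peak in any list were 60979482 to 61180905 (201 kb), 59900001 to 60078549 (179 kb), from the left edge of the window, and 60756482 to 60902619 (146 kb). Longer ones lay in the flanks, at 695 kb on the right and 512 kb on the left. Of the 21 bins of 100 kb in the window, 3 held no peak in any long list, against 8 in either flank. Whether reads could be placed in these stretches was not tested.

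The right end of the window differed in form from the rest, in a division made after seeing the data. How much of this end belongs to the Mup genes is unknown, since peaks were not assigned to genes. In the last 700 kb, 61300001 to 62000000, fresh frozen liver had 49 peaks covering 17.7 kb, and the pair had 29.0 ± 1.41 peaks (SD, n = 2) covering 24.4 ± 0.384 kb. FiTAc-50/40 had 41 peaks over 27.7 kb, FiTAc-65/40 had 43 over 27.8 kb, and FiTAc-50/5 had 21 over 7.23 kb. The first 1400 kb held 47 fresh frozen peaks over 10.8 kb, and 62 and 56 in the pair over 17.6 and 16.5 kb. FFPE peaks of 1000 bp or more lay almost all in the last 700 kb. In the pair there were 9 and 7 of them there, against 0 and 1 in the first 1400 kb, and FiTAc-50/40 and FiTAc-65/40 had 7 each, against 0 and 1. Such peaks were not particular to this end. In the pair, the left flank held 14 and 15 and the right flank 22 and 23, each over 2.1 Mb. FiTAc-50/40 had 11 in either flank, and FiTAc-65/40 had 14 on the left and 13 on the right. Fresh frozen liver had 1 such peak in the whole window. Fresh frozen peaks were met by the pair in 53.1% (39.4 to 66.3) and 49.0% (35.6 to 62.5) of cases in the last 700 kb. In the first 1400 kb the shares were 31.9% (20.4 to 46.2) and 34.0% (22.2 to 48.3), so the intervals overlapped. FiTAc-50/40 met 63.3% (49.3 to 75.3) in the last 700 kb and 31.9% (20.4 to 46.2) in the first 1400 kb, and these intervals did not overlap. In FiTAc-65/40 the shares were 57.1% (43.3 to 70.0) and 34.0% (22.2 to 48.3), and in FiTAc-50/5 they were 28.6% (17.8 to 42.4) and 17.0% (8.89 to 30.1). The share of fresh frozen peaks met by no long FiTAc-seq list was 32.7% (21.2 to 46.6) in the last 700 kb and 55.3% (41.2 to 68.6) in the first 1400 kb. All 3 H3K4me2 peaks of the window lay in its last 700 kb.

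One broad site of this end was marked in every long list. It spanned 5218 bp, chromosome 4, 61746609 to 61751826, and was the highest peak of the window in all 5 FiTAc-seq lists. Its highest −log10 q-value was 77.7 and 80.6 in the 65/5 pair, where it ranked 974 and 308 in the whole lists as a single peak of 4445 and 4523 bp. It was 76.3 with rank 849 in FiTAc-65/40, 55.0 with rank 2306 in FiTAc-50/40, and 18.7 with rank 1053 in FiTAc-50/5. In fresh frozen liver the site was split into 4 peaks covering 1830 bp, of which the highest had a value of 21.1 and rank 10775. The site stood among the highest 4% of every long FiTAc-seq list. The H3K4me2 peak within it was 146 bp wide, with a value of 3.49 and rank 10831 of 11746.

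Of the 20 sites in 6 or 7 long lists, the 12 of lowest mean rank included 7 in the last 700 kb. The 2204 bp site at 61810878 to 61813081 had a value of 28.5 and rank 7018 in fresh frozen liver, 43.8 and rank 3977 in FiTAc-50/40, and 39.9 and rank 4830 in FiTAc-65/40. Its values were 22.02 and 19.04 in the pair and 6.59 in FiTAc-50/5. The 2463 bp site at 61504868 to 61507330 was a single peak of 2371 and 2343 bp in the pair, with values of 42.4 and 27.5, and had values of 36.5 in FiTAc-65/40, 30.4 in FiTAc-50/40, 7.07 in FiTAc-50/5 and 13.5 in fresh frozen liver. The 3681 bp site at 61686107 to 61689787 had values of 27.8 and 26.1 in the pair, 33.6 in FiTAc-50/40, 28.9 in FiTAc-65/40, 8.57 in FiTAc-50/5, and 12.3 in fresh frozen liver. Each of these sites was present in all 6 long H3K27Ac lists and absent from the H3K4me2 list. Further sites of this end were 61680743 to 61683220, 61715972 to 61718261 and 61947283 to 61947994.

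The other 5 of the 12 lay in the first 1400 kb and were narrower, at 304 to 727 bp. The 727 bp site at 61181395 to 61182121 held the highest fresh frozen peak of the window, with a value of 41.2 and rank 3449. Its values were 24.9 and 15.8 in the pair, 34.2 in FiTAc-65/40, 18.1 in FiTAc-50/40, and 5.65 in FiTAc-50/5. The 304 bp site at 60162688 to 60162991 was the reverse, with 8.17 and rank 28330 in fresh frozen liver and 33.3 and 48.3, ranks 6257 and 2114, in the pair. It had 29.5 in FiTAc-50/40, 26.3 in FiTAc-65/40 and 8.66 in FiTAc-50/5. The remaining sites were 60166693 to 60167016, 60593244 to 60593548 and 61188941 to 61189564.

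**Figure D5:**
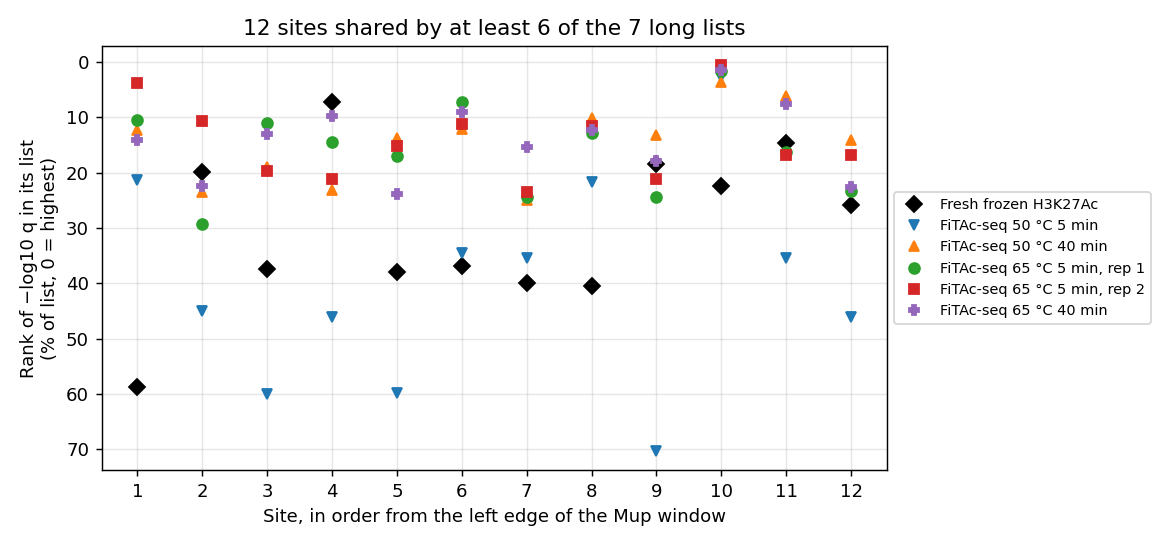
Rank of the −log10 q-value within its own list (y axis, % of the list, 0 is the highest) for the 12 shared sites of lowest mean rank (x axis, in order along the chromosome) in the 6 long H3K27Ac lists. Site 10, at 61746609, ranks among the highest 4% in each long FiTAc-seq list and lower in fresh frozen liver.

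The highest peaks of the window in one kind of tissue were not always present in the other. After the peak at 61181395, the highest of fresh frozen liver were 61819767 to 61820460, a 694 bp peak with a value of 36.4 and rank 4538, and 60736010 to 60736271, a 262 bp peak with 34.2 and rank 5119. Neither had a peak in any other list. Conversely, the peak at 61190244 to 61190690, the second highest of the window in FiTAc-50/40 with a value of 43.8, had a counterpart with 46.0 in FiTAc-65/40 (61190239 to 61190697) and peaks in both libraries of the pair, and none in fresh frozen liver or FiTAc-50/5. The next highest in FiTAc-50/5 after the broad site were 60166115 to 60166364, with 14.0, and 60163216 to 60163400, with 9.59. The first of these was met in all other long H3K27Ac lists, and the second in the 4 other FiTAc-seq lists and not in fresh frozen liver. In the first library of the pair, the peak at 60102107 to 60102701, with 35.8, was met in all 6 long H3K27Ac lists. In the second library, the 2 peaks that followed the broad site in height, within the sites at 60162688 and 60166693, were also met in all 6 long H3K27Ac lists.

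H3K4me2 had fewer peaks in the cluster than in its flanks. Its 3 peaks were 61869446 to 61869724 (279 bp, value 3.66, rank 10520), 61750647 to 61750792 within the broad site, and 61936393 to 61936538 (146 bp, value 2.11, rank 11735). The flanks held 19 and 14, with median values of 5.52 and 5.46. Both flanks were above the median of 7 H3K4me2 peaks per window of 2.1 Mb. Of the 1184 windows, 28.4% held 3 or fewer, so the count of the cluster was not rare. Of the 3, 2 met a long H3K27Ac list, or 66.7% (20.8 to 93.9), against 17 of 19 and 12 of 14 in the flanks. The peak at 61869446 was met by fresh frozen liver and 3 FiTAc-seq lists, and that at 61936393 by none.

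The homogenization conditions were then compared by the number of peaks in the window, against the spread of the pair (92 and 84, mean 88 ± 5.66, SD, n = 2), since no other condition had a replicate. The mean of the pair was 8 peaks below the single fresh frozen library, and its 2 libraries were 4 and 12 below, the first of which is less than that SD. These counts were not scaled to list length, which was 48239 peaks in fresh frozen liver and 60244 and 56632 in the pair. As shares of their lists, the window took 0.199% in fresh frozen liver and 0.153% and 0.148% in the pair. The direction of the difference in counts depended on the place. In the last 700 kb the difference was -20 and in the first 1400 kb it was 12, a division made after seeing the data. FiTAc-50/40 had 44 more peaks than FiTAc-50/5. FiTAc-65/40 minus the mean of the pair was -1, less than the SD. The mean of the pair was 43 peaks above FiTAc-50/5, and FiTAc-65/40 minus FiTAc-50/40 was -2. FiTAc-50/5 was therefore the one that stood apart, with 45 peaks, a median value of 5.65 and no peak of 1000 bp or more. It was also the shortest of the long FiTAc-seq lists, at 38409 peaks, and how far list length goes with its count in the cluster was not tested. The labels do not say that the libraries of the pair came from separate animals, and their spread may be technical only.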

How the data were processed

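The submitters' processing notes name BWA (an aligner), MACS2 (a peak caller) and the mm9 build. Tool versions, peak thresholds and control libraries are not given in the sources used here. The authors deposited 1 list per library, whose value was read as the −log10 q-value of each peak, because the long lists end just above 2. Values were used within a list only. The labels' protocols name 2 library kits without assigning them to samples. Peaks outside chromosomes 1 to 19, X and Y were dropped, and starts are 1-based.

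Groups came from sample titles. Peaks of different lists were counted as shared at an overlap of at least 1 bp, and shares carry Wilson 95% intervals. Density ratios and recovery differences were tested over lists by exact sign-flip permutation. The design had fixed the named sites: the 12 of lowest mean rank among those in at least 6 of 7 long lists, the 3 highest peaks per long list, and the 3 longest empty stretches. The window, its members and the lists were chosen with earlier results of these data known. Promoters were RefSeq sequences aligned pairwise with free end gaps. The counting, overlap and test steps were tested on simulated peaks. Alternatives covered a minimum value of 5, joining peaks up to 76 or 500 bp apart, covered length, the 10000 highest peaks, each flank alone, whole peaks only, a pseudocount of 0.1, overlap by 50% of the shorter peak or by midpoint, and leaving out each list. Tools were Biopython 1.88, scipy 1.17.1, pandas 2.3.3, matplotlib 3.10.9 and numpy 2.4.6 under Python 3.11.15.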

Additional observations from a re-analysis of the deposited data

Results flagged for a closer look

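The difference in Mup window peaks between 65 and 50 °C was of opposite sign at the 2 sonication times. At 5 min, the 65 °C libraries had 47 and 39 more peaks than the 50 °C library, and at 40 min the 65 °C library had 2 fewer than the 50 °C library (a difference of -2). The latter is between single libraries and smaller than the SD of the 65 °C, 5 min pair, 5.66 peaks. The whole lists had the same order, with 60244 and 56632 peaks against 38409 at 5 min, and 64146 against 65332 at 40 min. The effect at 40 min minus that at 5 min was -45 peaks. No test was made of this contrast, because only the 65 °C, 5 min condition had a replicate, so the difference was not tested.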

How the results depend on the processing

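The lower recovery of fresh frozen peaks in the window kept its direction in all 10 alternatives, with -36.2 points against the right flank and -28.9 against the left, and -33.6 to -31.2 when each list was left out. The mean log2 density ratio stayed below 0 in all 18 alternatives, of which 2 are the same set of lists (without H3K4me2). It passed 0.05 by the exact permutation test in 2, namely covered length (-0.88) and leaving out fresh frozen liver. The latter removed the only list above 0, so its p followed from that choice. For covered length, the H3K4me2 list had the lowest ratio, -3.15, and this alternative was not tested without it. The range of this ratio when each list was left out was -0.45 to -0.044, and over all settings p ran from 0.0313 to 0.813. Single lists did change sign. With values of at least 5, FiTAc-50/40, the 65/5 pair and FiTAc-65/40 stood at 0.13, 0.11, 0.15 and 0.27, and H3K4me2 at -2.70. With peaks up to 500 bp apart joined, FiTAc-50/40, the first library of the pair and FiTAc-65/40 stood at 0.29, 0.01 and 0.06. The 5 FiTAc-seq lists alone gave -0.16, with an exact permutation p of 0.0625. For 40 minus 5 min at 50 °C, the difference of 44 peaks was 57 with values of at least 5, 36 with peaks up to 76 bp apart joined and 21 with peaks up to 500 bp apart joined. At 65 °C it was -8.5 with peaks up to 76 bp apart joined, and -5 to 3 when either library of the pair was left out. For 65 against 50 °C at 5 min, the difference of 43 was 51 with values of at least 5, 18.5 with peaks up to 500 bp apart joined, and 39 to 47 without either library. The pair minus fresh frozen liver was -20.5 with peaks up to 500 bp apart joined, -20 in the last 700 kb, 12 in the first 1400 kb, and -12 to -4 without either library. No H3K4me2 peak of the window had a value of at least 5, so that alternative gave no share. The islands numbered 23 and 18 with gaps of 20 and 40 kb. No paired analysis was possible because only 1 condition had more than 1 replicate number. Sequencing depth is unknown, so a missing peak may be one that the depth could not show.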
